A study of Mus musculus with 4 samples.

Results

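Resting oligodendrocyte precursor cells (OPCs) were selected on measured UMIs, the captured molecules of each transcript, from the single-cell RNA counts of TdTomato-sorted cells. A cell qualified with 200 to 6000 genes and under 30% mitochondrial UMIs, at least 2 Pdgfra UMIs, under 2 Gpr17 UMIs, no Mog UMI, at most 1 UMI of Gad1 and Gad2 together, and no UMI of the cycle genes Top2a and Mki67. The rule found 301 cells among 26987, or 1.15% of the 26201 that passed the filters on genes and mitochondrial UMIs (kept cells below). Of these OPCs, 262 came from the 6 WT libraries and 39 from the 4 Grin1-null libraries. Pdgfra, Gpr17, Mog, Gad1, Gad2, Top2a and Mki67 therefore describe how the cells were chosen and support nothing further.

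OPCs are the dividing glia that give rise to oligodendrocytes. They are held in a proliferative state by platelet-derived growth factor acting on the receptor that Pdgfra encodes, carry the NG2 proteoglycan encoded by Cspg4, and depend on the transcription factors Olig1 and Olig2. They receive synapses from neurons, and on differentiation they pass through a stage that expresses Gpr17 before the myelin genes rise. OPCs of the forebrain arise from several sources in succession, and the earliest of them comes from the medial ganglionic eminence and neighbouring ventral regions that express Nkx2-1.

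The cells came from frontal cortex (nCX) and hippocampus (HPC) of male and female mice aged P18 to P20. All animals carried Nkx2-1-Cre and the Ai14 reporter, so that TdTomato marks cells whose ancestors expressed Nkx2-1. WT animals had the Grin1 wt/wt genotype, and null animals were Grin1 fl/fl, which removes the obligate NMDA receptor subunit from the same Cre lineage and leaves it in all other cells. Each library pooled animals of 1 genotype, and tetrodotoxin, APV and actinomycin-D were present during dissociation and sorting in both genotypes. There were 3 WT libraries from each region (replicates 1, 2 and 3) and 2 null libraries from each region (replicates 1 and 2). Chemistry differed by replicate, with the 10x kit of version 2 for replicate 1 and of version 3 for the others.

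Total UMIs were 9306756, 14212183 and 28057207 in WT nCX replicates 1, 2 and 3 and 10555408, 8782181 and 20639002 in WT HPC. They were 1488601 and 25688337 in null nCX and 3856745 and 47338167 in null HPC. In the same order, the libraries held 8, 33 and 45 resting OPCs (WT nCX), 33, 49 and 94 (WT HPC), 0 and 17 (null nCX) and 7 and 15 (null HPC). WT HPC replicate 3 gave the most, and null nCX replicate 1, with 177 kept cells, gave none. A resting OPC held a median of 1564 UMIs (quartiles 1183 and 2374, range 488 to 8118) in a median of 1088 genes, with a median of 2.30% mitochondrial UMIs. No barcode was shared by libraries among the OPCs, while 95 of the 26892 distinct barcodes of the series occurred in more than 1 library, and 3 OPC barcodes recurred outside the OPCs.

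Several libraries stood apart in ways that bear on the results that follow. The median UMIs per OPC were 1554, 1175 and 1517 in WT nCX, 1367, 837 and 2078 in WT HPC, 2762 in null nCX replicate 2 and 2419 and 4480 in null HPC, so every null library with OPCs was deeper per cell than every WT library. WT HPC replicate 2 was the shallowest. In that library 27 of 49 OPCs (55.1%) had an Olig1 or Olig2 UMI, against 90.9 to 100% in the other 8 libraries, and Olig1 stood at 674 CPM (counts per 1e6 UMIs of the summed cells) against 1639 to 4534 elsewhere. Xist, transcribed in females, stood at 1921, 0 and 279 CPM in WT nCX, 2766, 0 and 941 in WT HPC, 0 in null nCX and 0 and 0 in null HPC. Pooled, Xist stood at 685 CPM, and the Y-linked Eif2s3y, Ddx3y and Kdm5d at 76.3, 56.0 and 22.0. No null OPC held an Xist UMI, and none did in WT replicate 2 of either region, so replicate 2 holds Xist and chemistry alike between the genotypes. Depth per OPC differed there too, and for gene levels depth and genotype cannot be told apart. Some of the results are also given without WT HPC replicate 2. A UMI marks the 3′ end of a molecule, so CPM was not divided by transcript length and levels of different genes are set side by side on the CPM scale only.

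Grin1 is the floxed gene. In interneurons it stood at 144, 239 and 212 CPM in WT nCX, 120.1, 162 and 142 in WT HPC, 37.0 and 27.3 in null nCX and 27.2 and 19.0 in null HPC. Every null library was below every WT library there, so the counts of the gene follow the genotype. The OPCs held 21 Grin1 UMIs in 21 cells (35.6 CPM). By library these were 0, 2 and 5 UMIs in WT nCX, 1, 3 and 8 in WT HPC, 0 in null nCX replicate 2, and 0 and 2 in null HPC. The null counts lay within the WT range. A Grin1 UMI was present in 6.98% of resting OPCs (median 1564 UMIs), 1.12% of Mog cells (at least 1 Mog UMI, median 4885 UMIs), which serve as the background of free RNA, and 50.3% of interneurons (at least 2 Gad1 and Gad2 UMIs, median 7824.5). In the fit of genotype with no filter on low counts, the log2 change of null minus WT was -1.32 (SE 1.11, adjusted p = 0.915). It was -0.16 without null nCX replicate 2. Without null HPC replicate 2 the null library left in the fit held 0 Grin1 UMIs, so no fold is given. A loss of Grin1 in null OPCs was not detected with these few UMIs.

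The other named markers were present in the cells that Pdgfra chose. At least 1 of Cspg4, Olig1 and Olig2 was detected in 280 of 301 cells (93.0%), and all 3 in 114. The 21 cells without any of them held a median of 803 UMIs. Among them, 2 cells lacked all of Cspg4, Olig1, Olig2, Sox10, Ptprz1, Vcan, C1ql1, Cspg5 and Cacng4, and these had a median of 5075 UMIs, so they were not shallow. Olig1 had a UMI in 86.7% of the OPCs, Olig2 in 61.1% and Cspg4 in 57.5%. Interneurons, which should lack them, showed 2.79%, 0.817% and 0.151% with a median of 7824.5 UMIs. Gpr17 cells showed 87.3%, 66.6% and 13.7%, and Mog cells 84.9%, 45.2% and 0.648%. These classes were deeper, and at 1000 UMIs Olig1 was expected in 88.8% of OPCs, 63.9% of Gpr17 cells and 64.5% of Mog cells. In the same order, Olig2 was expected in 47.0, 35.2 and 14.6% and Cspg4 in 39.2, 7.32 and 0.203%. The shares at 1000 UMIs leave out shallower cells. These were 51 of 301 OPCs, 78 of 1456 Gpr17 cells and 588 of 7257 Mog cells. Olig1 and Olig2 were thus found across the lineage, while at 1000 UMIs all 3 genes were less frequent in both classes than in OPCs.

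The threshold on Pdgfra runs through a graded population. Among cells that met every other part of the rule, 221 held exactly 1 Pdgfra UMI and stayed outside, 126 held 2, 69 held 3, 39 held 4 and 67 held 5 or more, with a highest count of 16. Of the cells with 1 UMI, 79.2% had an Olig1 or Olig2 UMI, against 88.1% of those with 2 and 90.9% of those with 3 or more. Ptprz1 stood at 2172 CPM with 1 Pdgfra UMI, 2415 with 2 and 3259 with 3 or more, and Ttr, the transthyretin gene of choroid plexus, at 68912, 14653 and 967 CPM. As a pool, cells just outside were thus lower in OPC genes and held far more choroid plexus RNA. How many of them carried that RNA was not counted. Toward differentiation, 114 OPCs held exactly 1 Gpr17 UMI, and 60 cells just outside held exactly 2. On the other limits, 27 OPCs held exactly 1 Gad1 or Gad2 UMI, 18 cells were left out by Mog alone, 10 by Gad1 and Gad2 alone and 108 by Top2a and Mki67, 18 of these with exactly 1 such UMI.

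Some of the 301 cells carried RNA of other types. In WT HPC replicate 3, 4 cells held 154 to 2307 Ttr UMIs, where no other OPC held more than 7, and they supplied 99.2% of all Ttr UMIs. In WT HPC replicate 2, 2 cells were rich in myelin RNA. In WT nCX replicate 3, 1 cell held 31 UMIs of Col1a1, Col1a2, Col3a1, Dcn and Lum, the collagen and matrix genes of fibroblasts, or 91.2% of all their UMIs. These 7 cells, of which 3 had no Olig1 or Olig2 UMI, met the rule and were kept, and 294 remained in an alternative without them that was chosen after seeing the data. Choroid plexus and ependymal markers summed to 0, 21.6 and 0 CPM in WT nCX, 0, 19.3 and 15971 in WT HPC, 0 in null nCX and 0 and 0 in null HPC, led by Ttr, Kl, Clic6 and Kcnj13, with Ccdc153 and Tmem212 at 0. Pooled, they stood at 6249.7 CPM, and at 57.1 without the 7 cells. Fibroblast markers summed to 0, 0 and 921 CPM in WT nCX, 0, 57.8 and 147 in WT HPC, 21.7 in null nCX and 0 and 0 in null HPC, led by Igf2, Apod, Dcn and Col3a1, and to 3.57 CPM pooled without the 7 cells.

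Markers of the remaining types were low or absent. Of 12 microglia markers 8 were at 0, C1qa, C1qb, C1qc, Cx3cr1, Csf1r, Tmem119, Ctss and Aif1. With P2ry12, Trem2 and Tyrobp at 1 UMI each, the list gave sums of 76.8, 43.1 and 27.9 CPM in WT nCX, 0, 0 and 30.3 in WT HPC, 0 in null nCX and 121 and 16.1 in null HPC. Of 13 endothelial and mural markers 9 were at 0, Cldn5, Flt1, Pecam1, Ly6c1, Rgs5, Kcnj8, Abcc9, Pdgfrb and Acta2. Their sums were 231, 777 and 711 CPM in WT nCX, 195, 539 and 525 in WT HPC, 780.5 in null nCX and 425 and 450.4 in null HPC, almost wholly from Cspg4, which OPCs also express, ahead of Itm2a (25.4 CPM), Vtn and Kdr. No OPC held a C1qa or Cldn5 UMI, which allows up to 1.26% of cells with a UMI (Wilson) and sets no limit on cells that express the gene. Glutamatergic markers had 5 of 10 genes at 0 and sums of 0, 0 and 0 CPM in WT nCX, 19.5, 0 and 26.0 in WT HPC, 65.0 in null nCX and 0 and 0 in null HPC, led by Nrgn (6.78 CPM), with Slc17a7, Camk2a, Tbr1 and Neurod6 at 1 or 2 UMIs. Astrocyte markers had 2 of 12 at 0 (Gjb6 and Aldh1l1), Aqp4 at 3.39 and Gja1 at 5.09 CPM, and sums of 1537, 582 and 921 CPM in WT nCX, 740.2, 655 and 681 in WT HPC, 542 in null nCX and 1152 and 467 in null HPC. Clu (202 CPM), Slc1a2 (166) and Slc1a3 (142) led them, with Aldoc at 61.0, against 7528, 14534, 2550.2 and 4718 CPM in the 289 astrocytes of the same libraries. Interneuron markers summed to 1076, 539 and 823 CPM in WT nCX, 487, 347 and 286 in WT HPC, 564 in null nCX and 546 and 467 in null HPC. Nxph1 (234 CPM), which codes for a neurexin ligand, led them, ahead of Sst (96.6), Npy (59.3) and Gad1 (32.2), and Lhx6 and Lamp5 were at 0.

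In order of pooled level, the OPC identity genes were led by Ptprz1 (2940.1 CPM), a receptor phosphatase that carries chondroitin sulfate, Olig1 (2708), Cspg5 (2615), a neuronal and glial proteoglycan, Pdgfra (1748) and C1ql1 (1423), a secreted protein of the C1q family. All 24 members found in the files had UMIs, and 23 reached 50 CPM. Across the 9 libraries with OPCs, Ptprz1 ranged from 1208 to 4810.2 CPM (median 3555), Cspg5 from 905 to 3881 (2896) and C1ql1 from 385 to 2613 (1409). The lowest value of Cspg5 and C1ql1 fell in the shallow WT HPC replicate 2, while Ptprz1 was lowest in the WT replicate 1 libraries of both regions. The 12 genes with the largest ratio of OPC level to the highest of Mog cells, interneurons, astrocytes and microglia, as counted, are given with that ratio after counts under 3 in these classes were set to 3. It was 224 for Pdgfra, 56.2 for Cspg4, 48.3 for C1ql1, 46.1 for 3110035E14Rik, 39.1 for Rprm, 30.1 for Cacng4, 23.7 for Neu4 and 16.1 for Tmem255b. For Myt1 (13.5), A930009A15Rik (13.0), Gm21846 (9.98) and Pnlip (8.03) it was lower, and these 4 were then no longer among the first 12. Gpr17 cells were not among the classes of the ratio, and Neu4 stood higher in them (303 CPM against 185, lower in OPCs in 7 of 9 libraries). The rule chose the classes, so these ratios are a description and carry no test.

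The step from resting OPCs to Gpr17 cells (at least 2 Gpr17 UMIs, 1456 cells, median 3168 UMIs) showed in genes that the rule did not use. Ptprz1 was lower in Gpr17 cells, at 765 CPM against 2940.1 in OPCs, as were Cspg5, 313 against 2615, C1ql1, 498 against 1423, and Cspg4, 62.0 against 507. All 4 were higher in OPCs in each of the 9 libraries. Tnr, which encodes tenascin-R, ran the other way (719 and 1126 CPM, lower in OPCs in all 9). Among genes of commitment, Bcas1, a marker of newly forming oligodendrocytes, stood at 588 CPM in OPCs and 3526 in Gpr17 cells, Sirt2, a tubulin deacetylase, at 473 and 5179, and Fyn, a kinase of the Src family, at 331 and 2828. OPCs were the lower in all 9 libraries for these 3 genes, and in 8 of 9 for Itpr2 (283 and 589 CPM), a calcium release channel. Enpp6, an early mark of differentiation, was detected in 2 OPCs (0.664%) and in 54.9% of Gpr17 cells. Kif19a, Tmem2 and Casr had no UMI in OPCs.

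Myelin genes were a small part of the OPC transcriptome. The 17 genes summed to 1643 CPM in OPCs, 29091 in Gpr17 cells and 163846 in Mog cells, and to 1081 in OPCs without the 7 cells rich in other RNA. Cnp (278 CPM), Mbp (179.7) and Mal (93.3) were among them. By library they summed to 1076, 669 and 962 CPM in WT nCX, 1052, 7278 and 1127 in WT HPC, 1453 in null nCX and 606 and 1383 in null HPC, so WT HPC replicate 2, which holds the 2 cells rich in myelin RNA, was far above the rest. Mbp was detected in 21.3% of OPCs and 31.6% of interneurons, or 14.3 and 6.30% expected at 1000 UMIs.

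The transcription factors of the lineage summed to 6667 CPM, and all 26 had UMIs. Olig1 and Olig2 (665 CPM) came ahead of Nfia (307), a glial factor, Sox10 (281), needed for myelin gene expression, and Sox4 (268), a factor of immature cells. Sox10 was no higher in OPCs than in Gpr17 cells (322 CPM, with OPCs higher in 4 of 9 libraries). Sox11, another factor of immature cells, was higher in OPCs in all 9 (205 against 74.2 CPM), while Sox4 was lower in OPCs in all 9 (268 against 526 CPM). Of the factors that pattern the forebrain, Zbtb20 (653 CPM), Nfia, Nfix (232) and Nfib (226) were the most abundant, while Lhx6, Lhx8, Emx1, Dlx5, Dlx6, Sp8 and Fezf2 had no UMI, and the list summed to 1877 CPM.

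Nkx2-1, which defines the lineage, was found in few OPCs. An Nkx2-1 UMI occurred in 17 OPCs (5.65%) of 6 libraries, against 0.661% of Mog cells and 13.0% of interneurons, and the shares expected at 1000 UMIs were 2.85, 0.174 and 2.29%. In Pdgfra cells with Top2a or Mki67 the shares were 13.0% and, at 1000 UMIs, 4.95%, in Gpr17 cells 2.75% and 1.11%, and in astrocytes 5.19% and 2.07%. Of the 18 Nkx2-1 UMIs, 13 lay in WT HPC replicate 3 and 1 in each of 5 other libraries. Lhx6, which acts below Nkx2-1 in interneurons, was at 0 of 301 OPCs and in 53.5% of interneurons. A UMI of the Tomato reporter was found in 202 OPCs (67.1%), 52.8% of Mog cells and 91.0% of interneurons, or 56.9, 20.1 and 52.8% at 1000 UMIs. Per UMI sequenced, and among cells of 1000 UMIs or more, the reporter was therefore detected about as often in OPCs as in interneurons.

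Growth factor genes summed to 3164 CPM, of which Pdgfra made up 1748. Ntrk2 (276 CPM), the receptor of BDNF, Spred1 (178), an inhibitor of Ras signalling, and Etv1 (115), a factor of the ETS family, followed, and Pdgfrb and Met had no UMI. Etv5 and Spry1, a factor and an inhibitor that respond to receptor tyrosine kinases, were at 103 and 96.6 CPM against 11.1 and 18.3 in Gpr17 cells. Of the cell cycle list, Ccnd1, the cyclin of the G1 phase, led with 882 CPM against 829.5 in the 108 Pdgfra cells with Top2a or Mki67, 97.6 in Gpr17 cells and 3.23 in Mog cells. It had a UMI in 65.1% of resting OPCs, and its level ran from 669.5 to 1158 CPM over the 9 libraries, all above the pooled level of Gpr17 cells. Hmgb2, a chromatin protein of dividing cells, was at 171 CPM in resting OPCs and 2663 in the cells with Top2a or Mki67. The cycle inhibitors Cdkn1c and Cdkn1b were at 163 and 76.3 CPM, and the list summed to 1845 in resting OPCs, where the rule sets Top2a and Mki67 to 0.

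Of the Notch, Wnt and hedgehog genes (666 CPM summed, 6 of 27 at 0), Dll3, a ligand of the Delta family, stood at 156 CPM, Hes5, a target of Notch, at 107, Gas1, a hedgehog co-receptor, at 84.8 and Hes6, a relative of Hes5, at 66.1. Hes5 was higher in OPCs than in Gpr17 cells in 8 of 9 libraries (107 against 10.5 CPM pooled). It was higher still in the cycling class, at 218 CPM.

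Of the genes of synaptic input, those of glutamate receptors stood higher in OPCs than in Gpr17 and Mog cells. The glutamate receptor list summed to 2657 CPM, with 24 of 30 genes detected, against 1266 in Gpr17 cells, 214 in Mog cells and 3423 in interneurons. Cacng4 (777 CPM), an auxiliary subunit of AMPA receptors, Gria2 (677), the AMPA subunit that limits calcium entry, Gria3 (244) and Grin3a (137), a modulatory NMDA subunit, were the most abundant. Gria1 was low in OPCs (40.7 CPM) and high in interneurons (632). Grin2a, Grin2c, Grm2, Grm3 and Cacng8 were among the genes with no UMI. GABA genes summed to 769.8 CPM, against 523 in Gpr17 cells, 1079 in Mog cells, 1703 in astrocytes and 3268 in interneurons. Gabbr1, which encodes a GABA-B subunit, was at 195 CPM in OPCs and Slc12a2, the chloride importer, at 105. Ion channel genes summed to 1238 CPM, led by the potassium channel genes Kcnk2 (181), Kcnd2 (136) and Kcnk1 (93.3) and by the sodium channel gene Scn3a (98.3).

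Matrix and adhesion genes were next in sum to OPC identity, with which they share members, at 12429.9 CPM. Beside Ptprz1 and Cspg5, Cntn1 (1163 CPM), an adhesion protein bound by tenascin-R, and Bcan (939), which encodes brevican, led them, and only Itga6 had no UMI. Cholesterol synthesis genes summed to 1331 CPM in OPCs, 3671 in Gpr17 cells and 6079.7 in Mog cells. Hmgcs1 (173 CPM), Msmo1 (136) and Idi1 (132) were among the most abundant. Immune genes summed to 222 CPM, led by the class I genes H2-D1 (81.4), B2m (71.2) and H2-K1 (25.4).

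**Figure D1:**
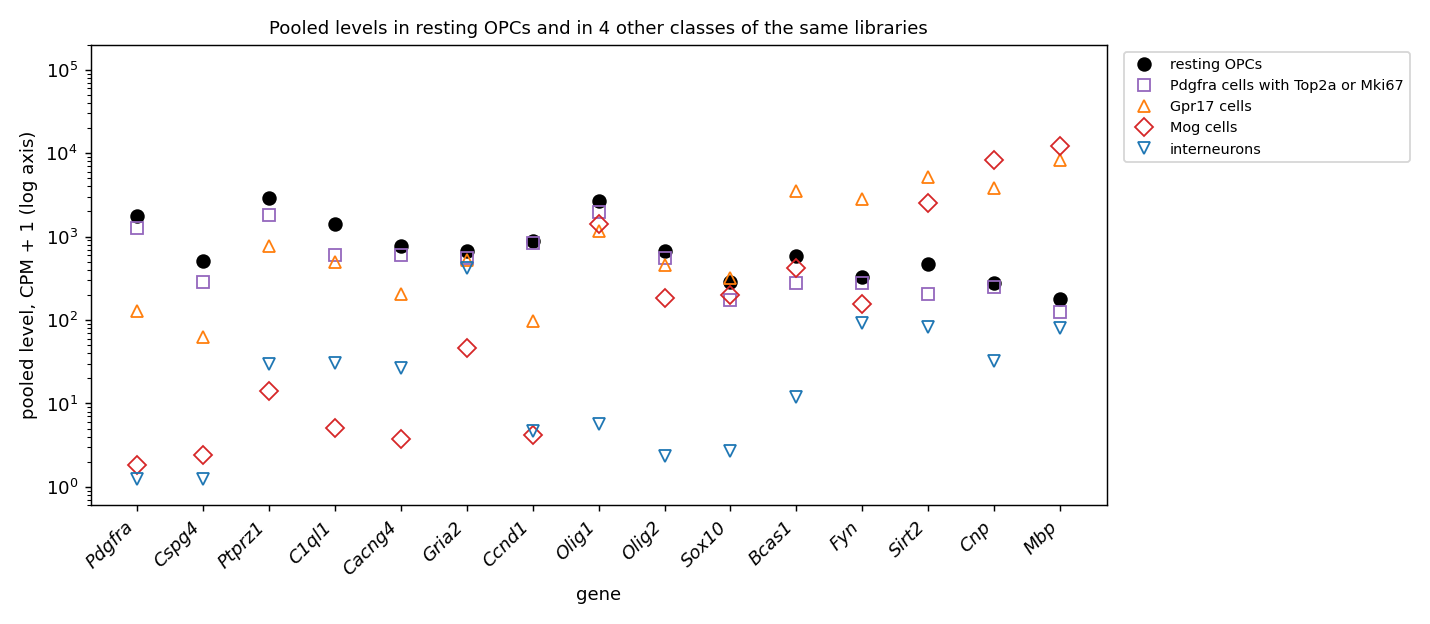
Pooled level of 15 genes (CPM + 1, log axis) in resting OPCs (filled circles) and in 4 other classes of the same libraries, with 1 point per class and gene. OPCs lie above Gpr17 cells for Pdgfra, Cspg4, Ptprz1, C1ql1, Cacng4 and Ccnd1 (882 against 97.6 CPM) and below them for Bcas1, Fyn, Sirt2, Cnp and Mbp (179.7 against 8232 CPM). The rule chose the classes by Pdgfra and genes not shown, so no test was made.

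Whether the regions differ in how many resting OPCs the Nkx2-1 lineage holds was asked in the 6 WT libraries. OPCs made up 0.626, 0.862 and 1.15% of the kept cells of nCX replicates 1, 2 and 3 and 1.49, 1.07 and 2.998% of HPC, with 95% Wilson intervals from 0.318 to 1.23% for nCX replicate 1 to 2.46 to 3.66% for HPC replicate 3. HPC replicates 1 and 3 were above every nCX library, and HPC replicate 2 lay within the nCX range. Within each of the 3 replicates HPC was above nCX, and the permutation did not use the replicate numbers. The means were 1.85 ± 1.02% in HPC and 0.878 ± 0.260% in nCX (SD, n = 3 each), a difference of 0.973 points (two-sided exact permutation p = 0.2, adjusted p = 0.5 over 5 tests, where 3 against 3 libraries cannot give less than 0.1). The difference was 0.861 points within version 2 of the chemistry and 1.03 within version 3. Among cells of 2000 UMIs or more, which keep 1, 6 and 10 OPCs of nCX and 5, 4 and 52 of HPC, it was 0.634 points (added after seeing the data), and 0.453 with these cells thinned to 2000 UMIs. With at least 3 Pdgfra UMIs it was 0.409. Without HPC replicate 3 it was 0.399 points, and without HPC replicate 2 it was 1.37. Intervals cover counting error only.

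As a share of lineage cells, those with at most 1 Gad1 and Gad2 UMI that have 2 Pdgfra, 2 Gpr17, 2 Enpp6 or 1 Mog UMIs or more, resting OPCs made up 2.27, 3.47 and 5.94% in WT nCX and 2.13, 2.36 and 5.68% in WT HPC. The regions overlapped, replicate 3 was the highest of both, and HPC was lower than nCX within each of the 3 replicates. The means were 3.39 ± 1.98% in HPC and 3.89 ± 1.87% in nCX (SD, n = 3 each, difference -0.506 points, exact permutation p = 0.6, adjusted p = 0.6), with differences of -0.146 and -0.685 points within chemistry versions 2 and 3. The sign turned among cells of 2000 UMIs or more, both as counted (0.467 points) and thinned to 2000 UMIs (0.190), and without nCX replicate 3 (0.519), HPC replicate 1 (0.125) or HPC replicate 2 (0.00676).

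Cells that met the rest of the rule but held a Top2a or Mki67 UMI were 0 of 8 (0%), 9 of 42 (21.4%) and 13 of 58 (22.4%) of all such Pdgfra cells in WT nCX. In WT HPC they were 12 of 45 (26.7%), 26 of 75 (34.7%) and 30 of 124 (24.2%). Every HPC library was above every nCX library, though the interval of nCX replicate 1, with 8 cells, reached 32.4%. The means were 28.5 ± 5.47% in HPC and 14.6 ± 12.7% in nCX (SD, n = 3 each), a difference of 13.9 points (two-sided exact permutation p = 0.1, the smallest possible, adjusted p = 0.5). Within chemistry the difference was 26.7 points in version 2 and 7.51 in version 3, and without nCX replicate 1 it was 6.59, so the size of the difference rested in large part on a library with 8 Pdgfra cells. Among cells of 2000 UMIs or more it was 24.99 points as counted, with HPC replicate 3 (35.8%) below nCX replicates 2 and 3 (40 and 37.5%). It was 31.3 thinned to 2000 UMIs, where the shares rest on 2, 7 and 19 Pdgfra cells of nCX and 16, 8 and 69 of HPC. The share read from Top2a and Mki67 is a count of cells with a UMI of either gene, not of cells in cycle.

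Between genotypes, resting OPCs were 0 of 177 kept cells (which allows up to 1.69%) and 0.659% in null nCX replicates 1 and 2, against 0.626, 0.862 and 1.15% in WT nCX. They were 1.75 and 0.370% in null HPC replicates 1 and 2, against 1.49, 1.07 and 2.998% in WT HPC. By this share of kept cells the null nCX library with OPCs lay within the WT range, while in HPC 1 null library lay inside it and the other below it. The difference of null minus WT was -0.548 points in nCX (0.330 ± 0.466, n = 2, against 0.878 ± 0.260, n = 3, exact permutation p = 0.3, adjusted p = 0.5) and -0.793 points in HPC (1.06 ± 0.973 against 1.85 ± 1.02, SD, exact permutation p = 0.6, adjusted p = 0.6). Within chemistry it was -0.626 (version 2) and -0.344 (version 3) in nCX, and 0.258 and -1.66 in HPC, where the versions differ in sign. Without null nCX replicate 1, which held 0 OPCs, it was -0.218 points in nCX. In HPC it was -1.48 without null replicate 1, -0.105 without null replicate 2 and 0.0731 with at least 3 Pdgfra UMIs. Among cells of 2000 UMIs or more both regions turned, to 0.0468 points in nCX and 0.0951 in HPC as counted and to 0.0561 and 0.227 thinned to 2000 UMIs. That limit keeps 4 of 49 OPCs in WT HPC replicate 2 and 13 of 15 in null HPC replicate 2. The share of lineage cells, not tested between genotypes, was 0 and 1.41% in null nCX, below all WT nCX libraries (2.27 to 5.94%). In null HPC it was 4.05 and 0.773%, against 2.13, 2.36 and 5.68% in WT HPC. Among cells of 2000 UMIs or more it was 0 and 1.11% in null nCX, against 0.313, 1.08 and 1.74% in WT nCX. There null HPC stood at 3.61 and 0.686%, and WT HPC at 0.360, 0.579 and 3.59%. The share of Top2a or Mki67 cells was 19.0% (4 of 21) in null nCX replicate 2, 0 of 7 in null HPC replicate 1 and 48.3% (14 of 29) in null HPC replicate 2. The last was the highest of all libraries, and its OPCs were the deepest. Among cells of 2000 UMIs or more it was 51.9% (14 of 27) against 66.7, 50 and 35.8% in WT HPC, and thinned to 2000 UMIs 40% (8 of 20) against 68.8, 50 and 40.6%.

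**Figure D2:**
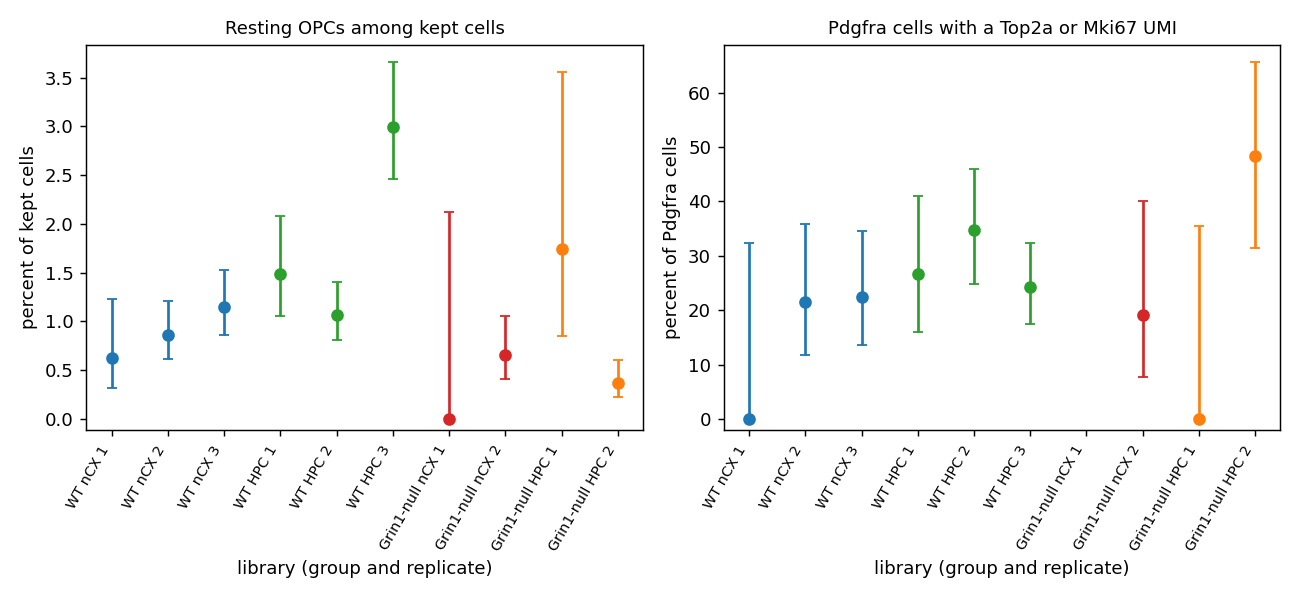
Resting OPCs as percent of kept cells (left) and Pdgfra cells with a Top2a or Mki67 UMI as percent of all Pdgfra cells that met the rest of the rule (right), with 1 point per library and 95% Wilson intervals as bars. On the left, WT HPC replicate 3 (2.998%) lies above all WT nCX libraries (0.626 to 1.15%). On the right, the WT HPC libraries (24.2 to 34.7%) lie above those of WT nCX (0 to 22.4%), and null nCX replicate 1 has no Pdgfra cell to give a value.

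Between the regions, WT OPCs of HPC held less Phlda1, Sparcl1 and Lrp1b and more Gap43 than those of nCX in every library. Most OPC identity genes had lower fitted levels in HPC, and the AMPA receptor genes Gria2 and Cacng4 lay lower in each HPC library than in each nCX library. None of these differences passed the test over all genes.

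Gene levels of the regions were compared on UMIs summed per library over the resting OPCs, leaving out sums of under 10 cells, so that WT nCX was represented by replicates 2 and 3 and WT HPC by all 3. In edgeR's quasi-likelihood test no gene of 1161 passed (0% called, with thresholds of 0.01 for the adjusted p and 0.1 for the change in natural logs). The count at an unadjusted p under 0.05 was 65, and DESeq2 called 0. The groups of libraries did not overlap in CPM for 278 genes (23.9%), 159 lower and 119 higher in HPC, and with sums of at least 5 cells, which brings in WT nCX replicate 1, for 128 of 982 (13%). That alternative was chosen after seeing the data. Without the shallow WT HPC replicate 2, no gene of 1259 was called, and 186 had an unadjusted p under 0.05.

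The 5 genes with the lowest p did not pass and are given by their values. Chl1, an adhesion protein of the L1 family, stood at 76.8, 582 and 349 CPM in WT nCX, 156, 96.3 and 113 in WT HPC, 238 in null nCX and 182 and 48.3 in null HPC, with a log2 change -1.89, SE 0.50, adjusted p = 0.802 for HPC minus nCX (edgeR). The HPC libraries were below nCX replicates 2 and 3 but above nCX replicate 1, which held 1 UMI and took no part in the fit. Phlda1, a protein with a pleckstrin homology-like domain, stood at 845, 647 and 363 CPM in WT nCX, 136, 193 and 169 in WT HPC, 976 in null nCX and 182 and 273 in null HPC (log2 change -1.53, SE 0.48, adjusted p = 0.802). Sparcl1, the secreted protein hevin, stood at 768, 626 and 697 CPM in WT nCX, 117, 347 and 217 in WT HPC, 650.4 in null nCX and 303 and 80.4 in null HPC (log2 change -1.50, SE 0.49, adjusted p = 0.802). Every WT nCX library was above every WT HPC library for both, and null nCX was above both null HPC libraries. Lrp1b, a receptor of the LDL receptor family, stood at 384, 518 and 642 CPM in WT nCX, 214, 116 and 273 in WT HPC, 585 in null nCX and 182 and 241 in null HPC (log2 change -1.43, SE 0.47, adjusted p = 0.802). Gap43, a growth-cone protein, ran the other way, at 154, 324 and 126 CPM in WT nCX, 896, 539 and 538 in WT HPC, 195 in null nCX and 606 and 611 in null HPC (log2 change 1.64, SE 0.54, adjusted p = 0.802). For these as well the 6 WT libraries did not overlap, and the 3 null libraries, which the fit of regions did not use, were ordered in the same way. In the null libraries Chl1 was likewise higher in nCX than in HPC. The adjusted p of the 5 genes was 0.0301 to 0.1796 without WT HPC replicate 2, 0.251 to 0.997 within version 3 of the chemistry, 0.782 to 0.782 without the 7 cells rich in other RNA and, for the 4 that were tested, 0.599 with sums of at least 5 cells.

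Most OPC identity genes had lower fitted levels in HPC, and none passed the test. Of the 21 tested beside Pdgfra, a gene of the rule, 19 had a negative log2 change, beside 564 of all 1161 genes, and 0 were called. Their median was -0.57, beside 0.02 over all 1161 genes. The libraries did not overlap for 8 (38.1%, beside 23.9% of all genes), each lower in HPC: Cacng4, Cspg4, Neu4, Ptprz1, Rlbp1, Sulf2, Tnr and Vcan. The list's median was -0.83 without WT HPC replicate 2, -0.47 within version 3 of the chemistry and -0.51 without the 7 cells rich in other RNA. With nCX replicate 1 brought in it was -0.49, and 4 of 21 did not overlap, Cacng4, Neu4, Rlbp1 and Sulf2, beside 13% of all genes. Ptprz1 was among those that then overlapped, at 1229, 4810.2 and 4757 CPM in WT nCX, 1208, 3716 and 2406 in WT HPC, 3555 in null nCX and 3699 and 1914 in null HPC. Both replicate 1 libraries of WT were low and near each other. Cspg4 likewise stood at 231, 777 and 586 CPM in WT nCX, 195, 539 and 503 in WT HPC, 694 in null nCX and 364 and 418 in null HPC, with a log2 change of -0.64 (SE 0.49). Within version 3 of the chemistry the log2 change was -0.32 for Cspg4 and -0.57 for Ptprz1, against -0.90 for Ptprz1 with both versions.

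Of 4 glutamate receptor genes tested, all had a negative log2 change, 0 were called, and 3 did not overlap (Cacng4, Gria2 and Gria3, 75% beside 23.9% of all genes, median -0.86 beside 0.02 for all genes). Cacng4 is also among the OPC identity genes counted above. Gria2 stood at 845, 884 and 1199.6 CPM in WT nCX, 487, 539 and 512 in WT HPC, 1041 in null nCX and 485 and 547 in null HPC, with a log2 change of -0.98 (SE 0.45). All 3 WT nCX libraries and the null nCX library were above every HPC library of either genotype. Cacng4 stood at 922, 1273 and 1060.1 CPM in WT nCX, 682, 424 and 624 in WT HPC, 1171 in null nCX and 606 and 740.0 in null HPC, with a log2 change of -0.96 (SE 0.45). WT and null nCX again lay above all HPC libraries. With sums of at least 5 cells, 2 of 3 tested did not overlap, Cacng4 and Gria2, beside 13% of all genes. The null libraries were not part of the test, and the p of both genes failed correction (adjusted p = 0.846 each in edgeR).

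Of 14 matrix and adhesion genes tested, 12 had a negative log2 change, 0 were called and 8 did not overlap (57.1% beside 23.9%), among them Bcan, Cspg4, Lrp1, Ptprz1, Sulf2, Tnr and Vcan. Cspg4, Ptprz1, Sulf2, Tnr and Vcan are also OPC identity genes counted above, so the lists are not separate evidence. The median was -0.59, -0.84 without WT HPC replicate 2 and -0.50 within version 3. With nCX replicate 1 brought in, 2 of 13 did not overlap, Bcan and Sulf2, near the 13% of all genes. Sulf2, an enzyme that trims sulfate from heparan sulfate, stood at 615, 496 and 725 CPM in WT nCX, 214, 289 and 421 in WT HPC, 629 in null nCX and 485 and 531 in null HPC. WT nCX was above WT HPC throughout, while both null HPC libraries reached or neared the nCX values.

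Of 6 commitment genes tested beside Gpr17, a gene of the rule, 4 had a negative log2 change and did not overlap (Fyn, Itpr2, Lims2 and Neu4, 66.7% beside 23.9%), with a list median of -0.67 and 0 called. Neu4 is also among the OPC identity genes counted above. With nCX replicate 1 brought in, 3 of 6 did not overlap, Itpr2, Lims2 and Neu4, beside 13% of all genes. Neu4, a sialidase, stood at 307, 324 and 335 CPM in WT nCX, 156, 57.8 and 130.1 in WT HPC, 173 in null nCX and 485 and 145 in null HPC. WT nCX was near-constant and above WT HPC, while of the null HPC libraries replicate 1 lay above null nCX and replicate 2 below it. Of 12 lineage transcription factors tested, 8 had a negative log2 change and 3 did not overlap, with and without nCX replicate 1: Hes5, Sox2 and Sox8 (25% beside 23.9%, and beside 13% with nCX replicate 1, median -0.16). Hes5, the only Notch, Wnt or hedgehog gene tested, stood at 231, 302 and 251 CPM in WT nCX, 39.0, 135 and 30.3 in WT HPC, 152 in null nCX and 0 and 80.4 in null HPC, with a log2 change of -2.18 (SE 0.84) and an adjusted p of 0.827 (edgeR). Sox8, a relative of Sox10, stood at 231, 388 and 335 CPM in WT nCX, 117, 135 and 173 in WT HPC, 369 in null nCX and 60.6 and 161 in null HPC with a log2 change of -1.24 (SE 0.50). For both genes every nCX library, null included, was above every HPC library.

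The remaining lists had few genes tested between regions, none of them called by edgeR or DESeq2 at the thresholds. Genes without overlap, of those tested and beside 23.9% of all genes, were 1 of 2 growth factor genes other than Pdgfra (Spred1, median -0.34), 0 of 2 cell cycle genes (0.20), 1 of 2 GABA genes (Gabbr1, -0.85) and 0 of 1 ion channel gene (-0.05). They were 1 of 5 regional patterning factors (Zbtb20, -0.11), 1 of 6 immediate early and heat shock genes (Jund, -0.90), 0 of 3 cholesterol genes (-0.46), 1 of 3 astrocyte markers (Slc1a3, -0.29) and 0 of 1 interneuron marker (0.06). Without WT HPC replicate 2 the median was -1.67 for immediate early and heat shock genes and 0.03 for astrocyte markers. It was -2.30 for cholesterol genes, of which 1 was then tested. Zbtb20, which is needed for hippocampal development, stood at 999, 928 and 1046 CPM in WT nCX, 468, 693 and 564 in WT HPC, 715 in null nCX and 303 and 418 in null HPC, with nCX above HPC in WT and in null libraries. Of 2 myelin genes tested, 1 did not overlap (Cnp). Of endothelial and mural markers only Cspg4 was tested (no overlap), of sex chromosome genes only Xist (overlap), and of immune, glutamatergic, microglia, fibroblast and choroid plexus markers none.

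**Figure D3:**
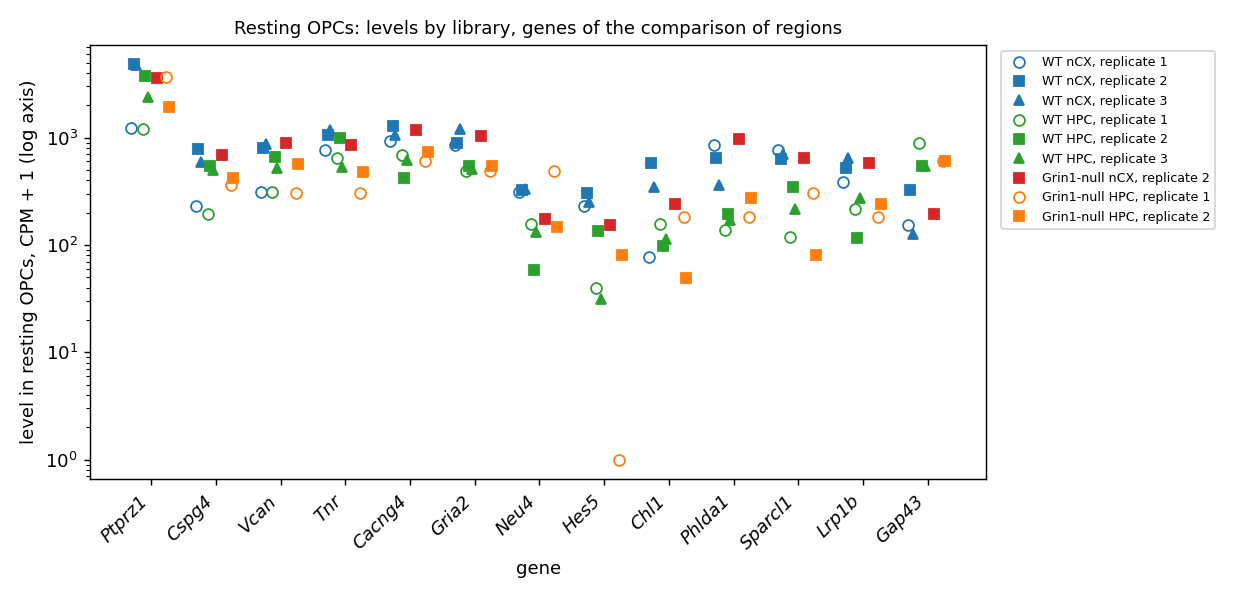
Level in resting OPCs (CPM + 1, log axis) of 8 list genes and the 5 genes with the lowest p between regions, with 1 point per library, open circles for version 2 of the chemistry (replicate 1). WT nCX (blue) lies above WT HPC (green) in every library for Phlda1 (363 CPM or more against 193 or less), Sparcl1, Lrp1b, Cacng4, Gria2, Neu4 and Hes5, and below it for Gap43. Replicate 1 breaks the order for Ptprz1, Cspg4, Vcan, Tnr and Chl1.

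Between the genotypes, the gene nearest to the threshold that separated all libraries was Tuba1a, which stood higher in each null library than in each WT library. OPC identity and glutamate receptor genes showed no common direction. Yam1 and Lars2 were lower in each null library than in the 4 WT libraries of version 3. No gene passed the test over all genes in the 7 libraries fitted. With the replicate number as a block 29 genes were called, Tuba1a, Yam1 and Lars2 among them. A fit of replicate 2 alone called 12, with Yam1 and Lars2 but without Tuba1a. Both of these fits had few libraries for their terms.

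Genotype was fitted over both regions in the 7 libraries with at least 10 resting OPCs, 5 WT and 2 null (replicate 2 of each region), with region as a term. The study counts 6 brains for the 3 WT replicates of both regions in a figure legend, and 10 WT and 6 null animals in its methods. It took null and WT mice from the same litters. By either count nCX and HPC of a replicate may share animals. The null libraries may then come from 1 set of animals, and p-values that take them as separate may be too small. In edgeR's quasi-likelihood test no gene of 1845 passed the thresholds (0% called), 125 had an unadjusted p under 0.05, and DESeq2 called 0. The 5 WT and 2 null libraries did not overlap for 258 genes (14%), 111 lower and 147 higher in null, and with sums of at least 5 cells, 6 WT against 3 null libraries, for 64 of 2135 (3%). With the replicate number as a block, which rests on replicate 2 in both genotypes, 29 genes were called, 12 higher and 17 lower in null. A fit of replicate 2 alone, chosen after seeing the data, called 12, all of them among the 29. It held 1 library of each genotype in each region. Both fits had few libraries for their terms, so their p-values may be far too small and their calls too many.

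The 5 genes with the lowest p did not pass. Tuba1a, an alpha-tubulin of growing neurites and immature cells, stood at 1229, 777 and 642 CPM in WT nCX, 701, 655 and 871 in WT HPC, 1908 in null nCX and 3093 and 2316 in null HPC. All 3 null libraries were above all 6 WT libraries (log2 change 1.48, SE 0.35, adjusted p = 0.394). Its adjusted p was 0.188 with sums of at least 5 cells, 0.0434 without WT HPC replicate 2, 0.0277 within version 3 of the chemistry and 0.00367 with the replicate block, where it was called. With replicate 2 alone it was 0.0156, and Tuba1a was not called. Cnp, an enzyme of the oligodendrocyte membrane, stood at 384, 151 and 112 CPM in WT nCX, 253, 250.3 and 225 in WT HPC, 542 in null nCX and 303 and 579 in null HPC (log2 change 1.54, SE 0.40, adjusted p = 0.394). Here nCX replicate 1 of WT overlapped the null HPC library of the same chemistry. Yam1, a long noncoding RNA, stood at 76.8, 5004 and 3529 CPM in WT nCX, 117, 7028 and 2376 in WT HPC, 369 in null nCX and 243 and 322 in null HPC, and Lars2, the mitochondrial leucyl-tRNA synthetase, at 0, 388 and 307 CPM in WT nCX, 19.5, 789 and 108 in WT HPC, 21.7 in null nCX and 0 and 0 in null HPC. Both were high in the 4 WT libraries of version 3 and low in every null library and in WT replicate 1. Within version 3 they were called (adjusted p = 3.96e-07 and 0.000563, edgeR), as were Xist and Ttr, each at 0 in all null libraries. Yam1 and Lars2 were also called with the replicate block (log2 change -4.23 and -5.89) and with replicate 2 alone (-4.19 and -5.78). The p-values of both fits may be far too small, as few libraries stood against the fitted terms. In version 2 Yam1 was higher in null HPC (243 CPM, 4 UMIs) than in WT HPC (117 CPM, 6 UMIs). The Ttr-rich cells lay in 1 WT library.

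Of the genes called with the replicate block, several OPC and oligodendrocyte genes had their most extreme value in WT HPC replicate 2, and the block was not run without that library. Olig1 (log2 change 1.53, adjusted p = 0.00207, edgeR with the block) stood at 4534, 1639 and 2357 CPM in WT nCX, 3662, 674 and 2783 in WT HPC, 3577 in null nCX and 3578 and 3282 in null HPC. Mal and Ptms were highest in WT HPC replicate 2, and Cd81 lowest. Sirt2 (1.62 with the block, 1.18 without it) stood at 1306, 324 and 335 CPM in WT nCX, 468, 173 and 377 in WT HPC, 867 in null nCX and 1031 and 740.0 in null HPC. Its null libraries lay above 5 of the 6 WT libraries. With replicate 2 alone, Olig1, Sirt2 and Cdc42 were not called (adjusted p = 0.0156, 0.0208 and 0.0156), while Eif3h and St13 were. Eif3h, Cdc42 and St13, chosen after their values were seen, were the called genes beside Tuba1a whose 3 null and 6 WT libraries did not overlap. Eif3h, a translation initiation factor, stood at 384, 64.7 and 139 CPM in WT nCX, 351, 135 and 451 in WT HPC, 499 in null nCX and 546 and 692 in null HPC, Cdc42, a small GTPase of the cytoskeleton, at 615, 237 and 363 CPM in WT nCX, 448, 212 and 438 in WT HPC, 737 in null nCX and 1031 and 804 in null HPC, and St13, a chaperone cofactor, at 231, 582 and 391 CPM in WT nCX, 370.1, 751 and 334 in WT HPC, 130.1 in null nCX and 182 and 209 in null HPC. Eif3h and Cdc42 were higher and St13 lower in null.

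OPC identity genes were spread around 0 between genotypes. Of 22 tested beside Pdgfra, 14 had a positive and 8 a negative log2 change, 0 were called and 3 did not overlap (Matn4, Olig2 and Sapcd2, each higher in null, 13.6% beside 14% of all genes). The median was 0.10, beside -0.06 over all 1845 genes, and 0.13 without WT HPC replicate 2. Of 18 lineage transcription factors, 3 did not overlap (Nkx2-2, Olig2 and Sox9, median -0.28, or -0.04 without WT HPC replicate 2), and of 9 commitment genes beside Gpr17 2 (Nkx2-2 and Sirt2, median -0.10). Olig2 stood at 538, 518 and 656 CPM in WT nCX, 604, 231 and 681 in WT HPC, 1257 in null nCX and 606 and 740.0 in null HPC (log2 change 0.74, SE 0.40). Null HPC replicate 1, outside the fit, lay within the WT range. With sums of at least 5 cells, 1 of the 22 OPC identity genes did not overlap (Sapcd2) and no gene of any other list did, beside 3% of all genes.

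Of 5 glutamate receptor genes, 0 were called and 0 did not overlap (median -0.02). Gria2 had a log2 change of -0.02 and Cacng4 of 0.13, while both were ordered by region in these libraries. The median of the 7 myelin genes tested was -1.41, and 0.84 without the 7 cells rich in other RNA. Only Cnp among them did not overlap. H2-D1, a class I gene of antigen presentation and the only immune gene tested, did not overlap in the 7 libraries fitted but did with WT nCX replicate 1. It stood at 154, 43.1 and 126 CPM in WT nCX, 0, 0 and 47.7 in WT HPC, 238 in null nCX and 243 and 145 in null HPC (log2 change 1.89, SE 0.88, adjusted p = 0.702). Beside 14% of all genes, of 4 Notch, Wnt and hedgehog genes 1 did not overlap (Gas1, median 0.22), of 4 growth factor genes other than Pdgfra 1 (Spry1, 0.41) and of 15 matrix and adhesion genes 1 (Cntn1, -0.26). None did among 4 cell cycle genes (0.00), 2 GABA genes (-0.41), 2 ion channel genes (-0.65), 5 regional patterning factors (-0.52), 6 immediate early and heat shock genes (0.62), 6 cholesterol genes (-0.13), 3 interneuron markers (0.01) or 3 astrocyte markers (-0.99). Of sex chromosome, endothelial and mural, fibroblast and choroid plexus genes 1 each was tested (Xist, Cspg4, Igf2 and Ttr), also with overlap, and of glutamatergic and microglia markers none. Without WT HPC replicate 2 the median was 0.68 for cholesterol genes and 0.66 for Notch, Wnt and hedgehog genes.

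The Tomato reporter stood at 692, 884 and 599.8 CPM in WT nCX, 799, 1001 and 1071 in WT HPC, 2016 in null nCX and 909.7 and 2091 in null HPC (log2 change 1.21, SE 0.36, adjusted p = 0.568). Both null replicate 2 libraries were about level with each other and above all WT libraries, and null HPC replicate 1 lay within the WT range.

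Whether the genotype difference itself differed between the regions was tested as an interaction in the same libraries. With 1 null library a region, the spread between libraries comes from WT alone, and every p of the interaction rests on null libraries varying alike. In edgeR no gene of 1845 passed (0% called), 15 had an unadjusted p under 0.05, and DESeq2 called 0. The 5 genes with the lowest p were Mbp, Prpf38b, Birc6, Vim and Fos (adjusted p = 0.9998 each). Mbp stood at 76.8, 86.3 and 97.6 CPM in WT nCX, 156, 327 and 169 in WT HPC, 477 in null nCX and 182 and 80.4 in null HPC, high in null nCX replicate 2 and WT HPC replicate 2. Fos, an immediate early gene, stood at 0, 173 and 377 CPM in WT nCX, 0, 250.3 and 43.4 in WT HPC, 217 in null nCX and 0 and 659.5 in null HPC, with null HPC replicate 2 the highest. Its adjusted p was 0.0227 without WT HPC replicate 2, and it was called among cells with 1000 genes or more and no more than 10% mitochondrial UMIs. Prpf38b, a splicing factor, had no UMI in null nCX, and Birc6, a ubiquitin ligase, and Vim, an intermediate filament of immature glia, had none in null HPC replicate 2, so no fold is given.

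**Figure D4:**
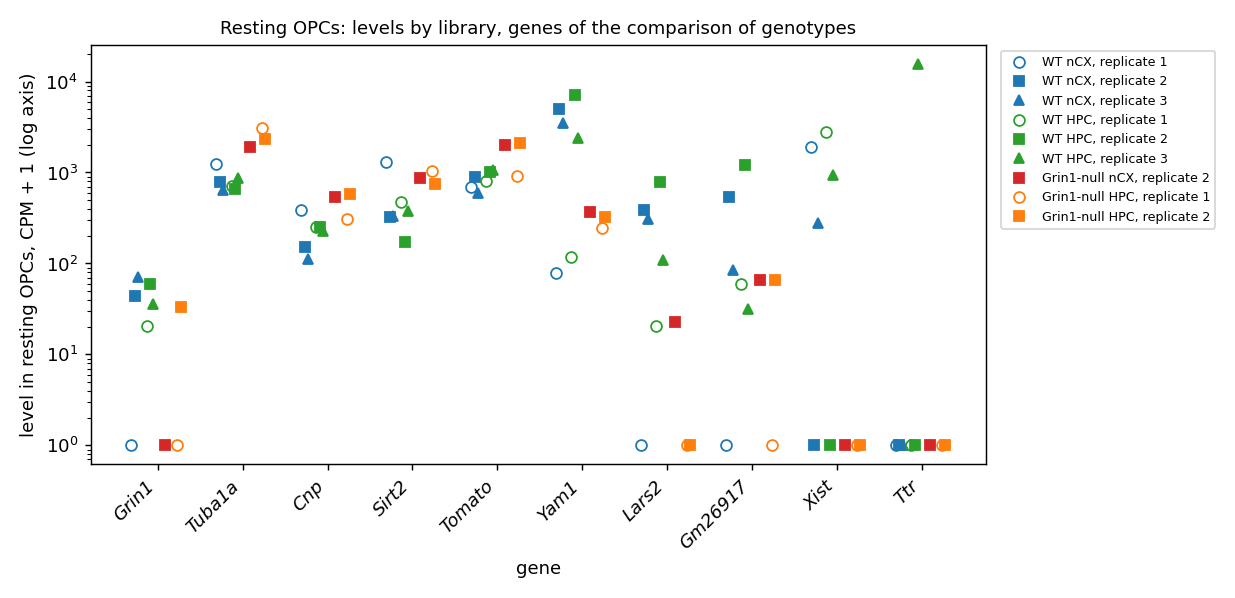
Level in resting OPCs (CPM + 1, log axis) of genes of the comparison of genotypes, with 1 point per library and open circles for version 2 of the chemistry (replicate 1). Null libraries (red and orange) lie above all WT libraries for Tuba1a (1908 CPM or more against 1229 or less). Yam1 and Lars2 are high only in WT libraries of version 3, Ttr is high in WT HPC replicate 3 alone, and points at the bottom of the axis are libraries with 0 UMIs.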

How the data were processed

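Single-cell 3′ RNA libraries (10x) of sorted TdTomato cells were read from 4 deposited matrices of UMI counts, 1 for each genotype and region, with 43348 features. The authors aligned the reads to mm10 with Cell Ranger (2.1.1 in the methods, 3.0.2 in the matrix headers). Libraries were taken from the barcode suffixes and matched to replicates by the cell numbers of the methods. No doublet caller was run. The limits leave out cells with a Mog UMI and cells with 2 or more Gad1 and Gad2 UMIs, while 27 OPCs held exactly 1 of the latter. Doublets with interneurons or other cells may remain.

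Shares were compared over libraries by two-sided exact permutation tests of the difference of means (5 tests, Benjamini-Hochberg). Gene counts were summed per library over the resting OPCs (at least 10 cells) and tested with edgeR 4.0.16 (TMM, filterByExpr, quasi-likelihood, Benjamini-Hochberg over all genes tested, thresholds of 0.01 for the adjusted p and 0.1 for the size of the change in natural logs, or 0.14 on the log2 scale). DESeq2 1.42.0 was an alternative, under R 4.3.3. The rest ran with pandas 2.3.3, numpy 2.4.6, matplotlib 3.10.9 and scipy 1.17.1 under Python 3.11.15. Null libraries of replicate 1 and WT nCX replicate 1 held under 10 OPCs and were left out of the gene tests. A gene was without overlap where every CPM of one group lay above every CPM of the other. The share of cells expected at 1000 UMIs came from each cell's counts by drawing without replacement. Cells of under 1000 UMIs were left out of it, among them 51 of 301 OPCs and 342 of 9920 interneurons. The limit for a count of 0 was 3 counts of the total, or the 95% Wilson bound where named. Thinning to 2000 UMIs used seed 1 and left out cells of fewer UMIs.

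The members and the 23 gene lists were chosen with earlier results of these data known. The lists were OPC identity, Lineage transcription factors, Commitment to differentiation, Myelin, Cell cycle, Growth factor receptors and signalling, Notch, Wnt and hedgehog, Glutamate receptors, GABA receptors and uptake, Ion channels, Matrix and adhesion, Regional patterning factors, Immediate early and heat shock, Cholesterol synthesis, Immune response, Sex chromosome genes, Interneuron markers, Glutamatergic neuron markers, Astrocyte markers, Microglia markers, Endothelial and mural markers, Fibroblast markers and Choroid plexus and ependymal markers. Lhfpl3, 9630013A20Rik and Scn2a were not found in the files. Named genes were Grin1, the genes of the rule, the cell type markers and the Tomato and EGFP features, of each list the 4 members with the highest mean CPM over libraries and every member past the thresholds, in each comparison up to 10 called genes without overlap in each direction, those with the largest change, or else the 5 genes with the lowest p, and the 12 genes with the largest ratio to other classes at 50 CPM or more. Mitochondrial and ribosomal genes were left out of the last parts. List members were also named where their libraries did not overlap, chosen after their values were seen. Some members that the rule takes are given only within the sum and counts of their list. Alternatives changed the scaling, the filters, the limits of the rule, the replicate block and the libraries used.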

Additional observations from a re-analysis of the deposited data

How the results depend on the processing

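Alternatives to the test of genes changed few counts. Between regions, 0 genes were called in 15 of 18 alternatives. With no filter on low counts 4 were called (Ttr, mt-Atp6, Xist and 1500015O10Rik), and leaving out each library gave 0 to 2, with Ttr without WT nCX replicate 2 (1 gene) and Ttr and Xist without WT nCX replicate 3 (2 genes). The lone nCX library is then assumed to vary like the others. Between genotypes, 0 genes were called in 17 of 23 alternatives. With no filter on low counts 4 were called (Ttr, Xist, Yam1 and Lars2), among cells with 1000 genes or more and no more than 10% mitochondrial UMIs 2 (Xist and Ttr), with the replicate block 29 and with replicate 2 only, added after seeing the data, 12. Leaving out each library gave 0 to 4, with Yam1, Ttr, Lars2 and Xist without WT HPC replicate 1 (4 genes) and Xist without WT HPC replicate 2 (1 gene). For the interaction, 0 genes were called in 16 of 17 alternatives, 1 (Fos) among cells with 1000 genes or more and no more than 10% mitochondrial UMIs, and 0 to 0 without each WT library. Without null nCX replicate 2 or null HPC replicate 2 the interaction could not be fitted. The fitted log2 change of Grin1 was negative in all 12 alternatives, from -1.40 to -1.15 with no library left out. Without null HPC replicate 2 the null library in the fit held 0 Grin1 UMIs, so no fold is given and its sign adds nothing. With another library left out the log2 change ran from -1.46 to -0.16.

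The shares depended more on the rule and on depth. Thinning to 2000 UMIs leaves out shallower cells, so the same cells as counted were added as an alternative after seeing the data. The difference of regions among kept cells stayed positive in 14 of 14 alternatives, was 1.76 points with at least 1 Pdgfra UMI, 0.409 with at least 3, 0.634 among cells of 2000 UMIs or more, 0.453 with these thinned to 2000 and 0.601 with 1000 genes or more and no more than 10% mitochondrial UMIs, and ran from 0.399 to 1.37 when a library was left out. Among lineage cells it turned to 0.467 points among cells of 2000 UMIs or more and 0.190 with these thinned, and ran from -1.65 to 0.519 when a library was left out, turning without WT nCX replicate 3 (0.519), WT HPC replicate 1 (0.125) and WT HPC replicate 2 (0.00676). The difference in Top2a or Mki67 cells was 24.99 points among cells of 2000 UMIs or more, 31.3 with these thinned and 24.3 with 1000 genes or more and no more than 10% mitochondrial UMIs, and ran from 6.59 (without WT nCX replicate 1) to 17.8 when a library was left out. The genotype difference in nCX was -1.15 points with at least 1 Pdgfra UMI, 0.0468 among cells of 2000 UMIs or more and 0.0561 with these thinned, and ran from -0.878 (without null nCX replicate 2) to -0.218 (without null nCX replicate 1). In HPC it was -1.67 with at least 1 Pdgfra UMI, 0.0731 with at least 3, 0.0951 among cells of 2000 UMIs or more and 0.227 with these thinned. It ran from -1.48 to -0.105 when a library was left out. The cause of these changes was not tested.

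With the replicate number as a block, the counts of genes were 0 between regions, 29 between genotypes and 0 for the interaction. Grin1 had a log2 change of -1.40. The mean differences within replicates were 0.973, -0.506 and 13.9 points between regions (kept cells, lineage cells and Top2a or Mki67 cells), and -0.414 points in nCX and -0.219 in HPC between genotypes.

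With 301 cells of 1564 UMIs (median), 7 libraries in the gene tests and 1 null library a region, moderate differences in genes of low level were not detectable at this depth. For gene levels, depth per cell and genotype cannot be told apart, and the part of sorting and dissociation in the shares of OPCs was not tested. Of the libraries fitted for genotype, WT nCX replicate 3 and WT HPC replicates 1 and 3 held Xist UMIs and the null ones held none. The part of sex in that fit was not tested.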

Other observations

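Immediate early and heat shock genes summed to 1229, 5004 and 3362 CPM in WT nCX, 1364, 4563 and 2298 in WT HPC, 3512 in null nCX and 2183 and 5469 in null HPC. The WT libraries of replicate 1 were the lowest of their regions. Hsp90aa1 (744 CPM pooled) and Hspa8 (719), which encode chaperones, and Jund (546) and Jun (519), which encode AP-1 subunits, led the list, and Atf3 had no UMI. Fos stood at 0, 173 and 377 CPM in WT nCX, 0, 250.3 and 43.4 in WT HPC, 217 in null nCX and 0 and 659.5 in null HPC, and Egr1, chosen after its values were seen, at 0, 496 and 181 CPM in WT nCX, 0, 501 and 43.4 in WT HPC, 369 in null nCX and 0 and 450.4 in null HPC. Both genes were at 0 in every library of replicate 1, which was made with version 2 of the chemistry, and were detected in every library of replicates 2 and 3.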
